A study of Mus musculus with 4 samples.

Results

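The genes described here are 35 markers and adhesion molecules of the endothelium, the cell layer that lines blood and lymph vessels. They were chosen by name, and all 35 were found among the 17485 genes of the deposited table. General endothelial markers made up 30 of them. The other 5 were molecules that inflamed endothelium shows to leukocytes and their signals: Icam1, Vcam1, Sele, Selp and Ackr1. Heart tissue of Klf9 knockout (KO) mice (2 libraries) was compared with that of wild-type (WT) mice (2 libraries) by bulk sequencing of total RNA. All 4 samples were labelled male and 8 weeks old with no treatment beyond feeding named. Klf9, a Krüppel-like DNA-binding factor, was studied for its bearing on the mitochondria of the heart. No label gave the allele, the deleted part, the genetic background, the number of animals per library or a batch. Whether each library stands for its own animal is unstated; the p-values therefore measure only how far these libraries differ, and that spread may be technical.

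The deposited table holds log2 ratios between libraries, not counts, so the depth of each library is unknown. A value per library was recovered from these ratios, in a unit that was not given; these values summed to 409359 and 418974 in the KO libraries and to 426032 and 489534 in the WT libraries. Klf9 itself stood at 2.66 and 1.99 in the KO libraries, against 74.9 and 58.8 in the WT libraries. KO replicate 2 went against its label of male: the Y-linked genes Kdm5d and Ddx3y were at the smallest value of 0.01 there, and at 4.01 and 7.82 in KO replicate 1. Uty and Eif2s3y, at 0.58 and 0.73 there and at 3.57 and 26.96 in KO replicate 1, were low as well. Xist, the other gene of this label check, had no row in the deposited table, so the check rests on Y-linked genes alone. Results without KO replicate 2 are therefore given beside the main ones for the called general markers and for some other genes and lists. The cardiomyocyte marker Myh6, the adult alpha myosin heavy chain, was at 8725 and 7138 in the KO libraries and 7101 and 4788 in the WT libraries. Of 10 cardiomyocyte markers 2 were higher and 2 lower in the KO (limma), beside 27.7% and 17.0% of all genes tested. Of the higher ones, 1 entered the test through its KO values alone. Of 8 proliferation markers, 8 were higher in the KO (limma), beside 27.7% of all genes tested. Of the 8, 3 entered the test through their KO values alone. The 8 markers summed to 122 to 164 in KO and 7.97 to 8.97 in WT hearts. None of these markers was at the smallest value in every library, and the part of proliferation in the endothelial results was not tested.

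Endothelial cells are held together by junction proteins such as VE-cadherin and claudin 5, are kept alive and shaped by VEGF, angiopoietin and apelin signals, and take their identity from ETS and SoxF transcription factors. When cytokines activate NF-kB, endothelial cells display selectins, on which leukocytes roll, and then ICAM1 and VCAM1, to which leukocyte integrins bind. In the heart most of the endothelium is capillary, lying next to each cardiomyocyte and passing fatty acids to it.

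General endothelial markers moved in both directions, with more of them higher than lower in KO hearts. Of the 30, all of which were tested, 12 rose, 1 fell and 17 did not pass (limma on log2 of the value plus 1, p adjusted by Benjamini and Hochberg over 12135 genes and called below 0.05). That is 40.0% higher and 3.33% lower, beside 27.7% higher, 17.0% lower and 44.7% in either direction among all genes tested. Both KO libraries lay above both WT libraries for 19 of the 30 and below them for 7, while 4 overlapped; over all genes tested 45.2% lay above and 30.2% below. The authors' deposited table had q below 0.05 for 18 of the 30 higher and 10 lower, where it called 41.3% of its genes higher and 28.7% lower. In limma the median log2 fold change of the 30 was 0.28, or 0.16 relative to the median of all genes tested, which was 0.12. The apelin receptor Aplnr, claudin 5 (Cldn5) and apelin (Apln) rose most. The values of the 30 summed to 1276 and 1348 in the KO libraries, against 1079 and 1008 in the WT libraries, so the groups did not overlap. In bulk tissue a change in the number of endothelial cells and a change in RNA per cell cannot be told apart.

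Scaling and single libraries bore on these counts. RLE scaling, which moved the median of all genes to -0.01, left 10 higher and made 2 lower, with Robo4 and Flt4 no longer passing and Emcn passing; all genes tested then gave 21.7% higher and 21.4% lower. Without KO replicate 2 there were 5 higher (Aplnr, Apln, Cldn5, Nos3 and Sox7) and 0 lower in limma, and 7 and 0 at an unadjusted p below 0.05, while all genes tested gave 15.3% higher and 9.06% lower. Without KO replicate 1 there were also 5 and 0, beside 18.1% and 10.3% of all genes tested; leaving out either KO library ended the calls of Cdh5, Icam2, Robo4, Flt1, Flt4, Tie1, Erg and Egfl7. In a fit without a KO library the spread within groups comes from the WT libraries alone, and without a WT library from the KO libraries alone. Adjusted p-values of such fits are not comparable with those of the main fit. Without KO replicate 2 the log2 fold changes of Cdh5, Icam2, Robo4 and Flt1 were 0.82, 0.61, 0.65 and -0.67. Those of Flt4, Tie1, Erg and Egfl7 were 0.48, 0.76, 0.71 and 0.68. With all libraries they were, in the same order, 0.85, 0.68, 0.67, -0.66, 0.55, 0.72, 0.68 and 0.76. Leaving out a WT library added calls among the 30 markers and among all genes. Without WT replicate 1 there were 13 higher and 4 lower, beside 35.7% and 26.9% of all genes tested, with Sox18 added as higher and Emcn, Clec14a and Calcrl as lower. Without WT replicate 2 there were 13 and 3, beside 32.9% and 19.1% of all genes tested, with Tek and Ramp2 added as higher, Eng and Vwf as lower, and Flt4 lost. The WT libraries differed from each other more than the KO libraries did: the median absolute log2 difference over the 30 markers was 0.10 between the KO libraries and 0.37 between the WT libraries, and over all genes tested it was 0.15 and 0.32.

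**Figure D1:**
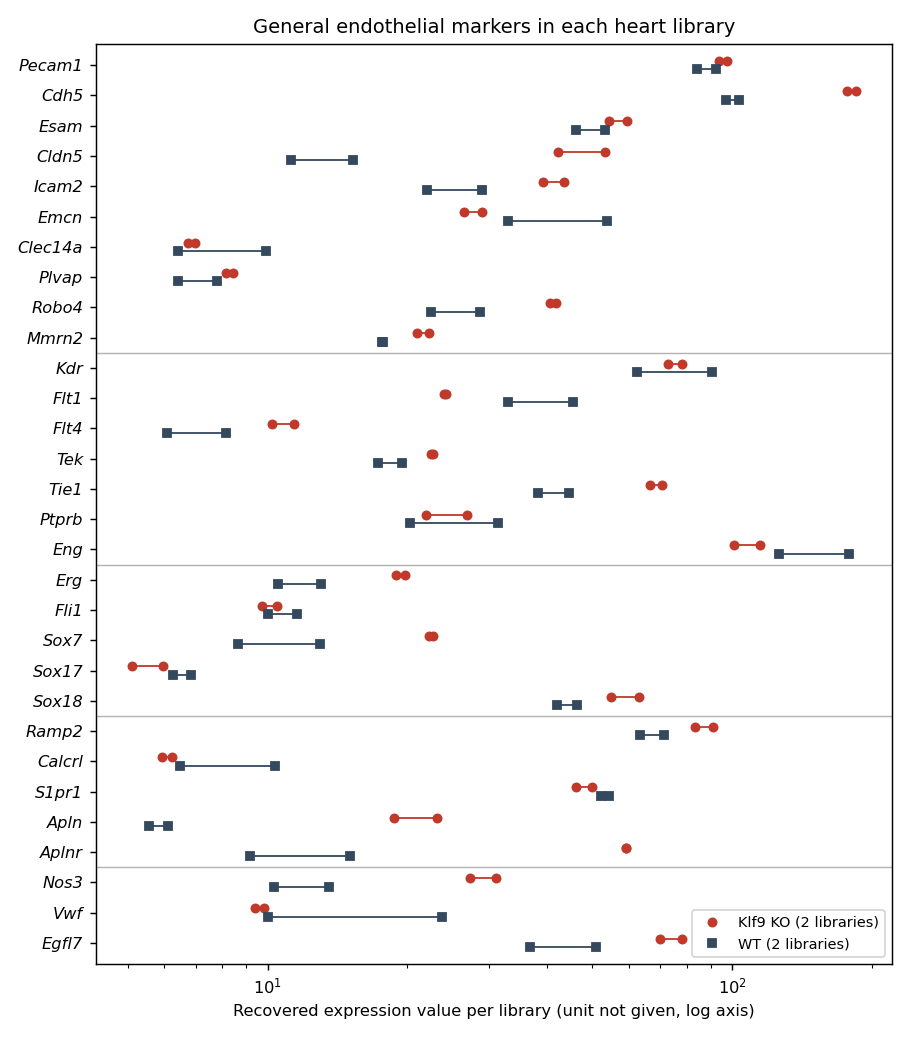
Recovered value of each of the 30 general endothelial markers in each library, on a log axis in a unit that was not given; circles are the 2 Klf9 KO libraries, squares the 2 WT libraries, lines join libraries of a group, and grey rules part the gene classes. Aplnr, Apln and Cldn5 stand clear of WT on the right, while Kdr, Ptprb, Fli1 and Clec14a overlap, and Vwf spans 10.04 to 23.8 in WT.

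The 5 inflammatory adhesion molecules did not move as a group: Sele and Vcam1 rose, Icam1 fell, and Selp and Ackr1 stayed below a value of 1 in every library and were not tested. For the 3 that were tested, the shares of all genes called (27.7% higher and 17.0% lower) stand beside counts of 2 and 1. E-selectin (Sele, Entrez 20339), a selectin made by activated endothelium, was at 1.95 and 2.51 in the KO libraries and at 0.60 and 0.27 in the WT libraries. Both KO libraries were above both WT libraries, and the ratio of the group means was 5.13. Its log2 fold change was 1.17 ± 0.18 (moderated SE, n = 2 per group, limma adjusted p = 0.000928). It entered the test through its KO values alone, so that among tested genes it had to differ; with no filter on low values its limma adjusted p was 0.0107.

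Vcam1 (Entrez 22329), the ligand of the leukocyte integrin alpha 4 beta 1, was at 11.2 and 10.98 in the KO libraries, against 5.87 and 6.90 in the WT libraries. The KO values lay close together above WT, with a log2 fold change of 0.71 ± 0.17 (limma, adjusted p = 0.00905). The call was lost when either KO library was left out. The log2 fold change was then 0.73 without KO replicate 2 and 0.7 without KO replicate 1. Icam1 (Entrez 15894), the ligand of the beta 2 integrins, was at 4.21 and 4.51 in the KO libraries and at 12.3 and 9.67 in the WT libraries. It fell by 1.15 ± 0.18 on the log2 scale (limma, adjusted p = 0.0011), to 0.397 of the WT mean, and still passed without KO replicate 2 (limma, adjusted p = 0.00222).

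P-selectin (Selp, Entrez 20344), which endothelium and platelets store and release to their surface within minutes, was at 0.17 and 0.11 in the KO libraries and at 0.60 and 0.42 in the WT libraries. Ackr1 (Entrez 13349), an atypical chemokine receptor of venules and red cells, was at 0.12 and 0.20 in the KO libraries and at 0.29 and 0.54 in the WT libraries. Both genes were lower in each KO library than in each WT library, at values so low that the depth behind them cannot be judged. With no filter, limma gave an adjusted p of 0.0247 for Selp and of 0.101 for Ackr1. In the authors' deposited table, all 4 pairwise log2 ratios of KO over WT were negative for Icam1, Selp and Ackr1 and positive for Sele and Vcam1. Across the deposited genes with 4 such ratios, 43.6% were positive in all and 28.2% negative in all. The Selp ratios in the authors' deposited table ran from -2.45 to -1.30, those of Ackr1 from -2.17 to -0.54 and those of Sele from 1.70 to 3.22.

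Set against the general markers, the adhesion molecules gave no single direction. The median log2 fold change of the 3 tested ones exceeded that of the general markers by 0.43. With all 5 counted under no filter the difference was -0.56. Its sign thus hung on which members entered the test. Sele entered through its KO values alone, while Selp and Ackr1, lower in both KO libraries, did not enter. Sele and Selp, a pair of selectins, lay on opposite sides of WT.

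**Figure D2:**
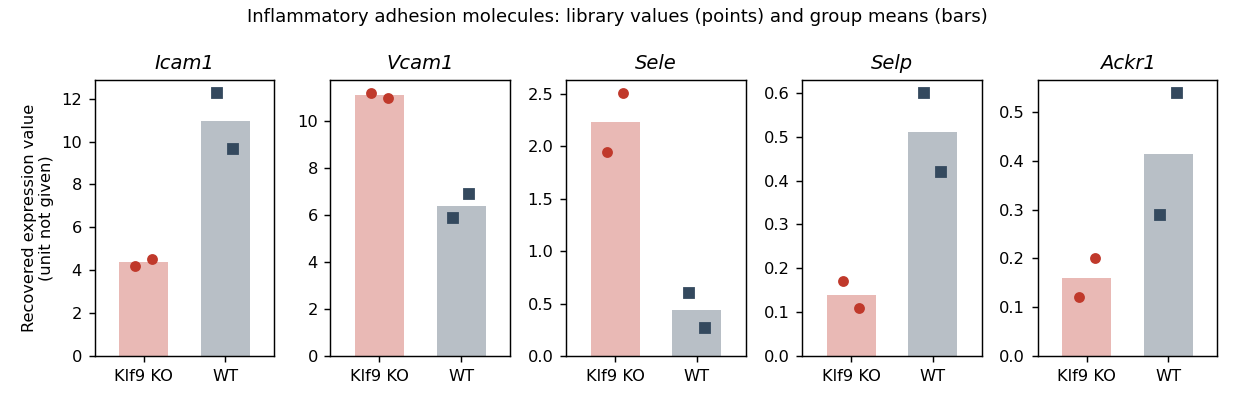
Recovered values of the 5 inflammatory adhesion molecules, each on its own axis from 0 in a unit that was not given; bars are group means and points the 2 libraries of each group. Klf9 KO lies above WT for Vcam1 and Sele and below WT for Icam1, Selp and Ackr1, and the last 2 stay below a value of 1.

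The stretches just before the starts of these genes are shown because Sele and Icam1, both known as targets of the same cytokine signals, moved in opposite directions. The sequences are the 250 bases before the RefSeq start (build GRCm38.p6), read in the direction of the gene, for the adhesion molecules with an entry and for Apln, the general marker with an entry among the pair of lowest p. Capitals mark a wide form of the NF-kB motif, GGG and TCC parted by any 4 bases, on either strand. The windows are chr1:164047984-164048233 (plus strand) for Sele, chr1:164115014-164115263 (plus strand) for Selp, chr9:21015690-21015939 (plus strand) for Icam1, chr1:173333504-173333753 (minus strand) for Ackr1 and chrX:48034854-48035103 (minus strand) for Apln.
Sele: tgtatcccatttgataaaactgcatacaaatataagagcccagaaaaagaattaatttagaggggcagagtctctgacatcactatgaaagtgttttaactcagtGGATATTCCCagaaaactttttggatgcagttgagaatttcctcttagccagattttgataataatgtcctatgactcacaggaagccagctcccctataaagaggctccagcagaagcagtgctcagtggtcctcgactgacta
Selp: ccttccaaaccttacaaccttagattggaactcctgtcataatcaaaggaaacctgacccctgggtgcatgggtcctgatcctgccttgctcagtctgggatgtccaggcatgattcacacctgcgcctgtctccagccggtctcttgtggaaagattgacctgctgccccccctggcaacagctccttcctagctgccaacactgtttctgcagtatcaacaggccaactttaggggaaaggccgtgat
Icam1: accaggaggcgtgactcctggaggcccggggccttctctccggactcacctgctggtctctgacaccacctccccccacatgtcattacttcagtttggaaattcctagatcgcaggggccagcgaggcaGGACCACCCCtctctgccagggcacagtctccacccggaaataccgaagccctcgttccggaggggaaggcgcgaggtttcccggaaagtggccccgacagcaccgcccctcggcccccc
Ackr1: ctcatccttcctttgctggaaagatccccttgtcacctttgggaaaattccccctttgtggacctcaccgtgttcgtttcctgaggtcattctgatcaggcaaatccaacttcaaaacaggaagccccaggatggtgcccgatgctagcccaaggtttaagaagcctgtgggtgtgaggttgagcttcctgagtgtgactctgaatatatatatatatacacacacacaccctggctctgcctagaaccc
Apln: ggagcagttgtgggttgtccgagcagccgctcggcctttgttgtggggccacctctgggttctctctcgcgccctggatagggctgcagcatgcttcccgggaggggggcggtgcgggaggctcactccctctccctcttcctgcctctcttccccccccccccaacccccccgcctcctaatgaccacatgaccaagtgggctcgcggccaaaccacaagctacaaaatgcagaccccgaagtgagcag

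The wide motif stood once before Sele, beginning 145 bases before its start, and once before Icam1, beginning 120 bases before its start, that is, before 1 gene that rose and 1 that fell. The windows of Selp, Ackr1 and Apln held no match. Of the 18 members with an entry, 4 (22.2%) had it, the other two being Tek and Egfl7; among all 32851 windows 16.5% did. A narrower form, GGG and TTTCC parted by any 2 bases and so contained in the wide one, was in 0 of the 18 and in 1.41% of all windows. The ETS core GGAAG was in 16 of the 18 members (88.9%) and in 64.1% of all windows, the Krüppel-like factor box CACCC in 14 (77.8%) and 52.0%, and the GC box GGGCGG in 9 (50.0%) and 32.7%. The 18 members have 22 windows in all, and a member with several windows had more chances to hold a motif. A match is a run of letters and not a bound site. Both NF-kB forms searched required GGG, so variants of the motif without it were neither marked nor counted.

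Among junction and surface proteins 4 of 10 rose and 0 fell in limma (4 and 1 at an unadjusted p below 0.05), beside 27.7% higher and 17.0% lower among all genes tested. Claudin 5 (Cldn5, Entrez 12741), the main sealing claudin of endothelial tight junctions, was at 42.1 and 53.2 in the KO libraries, against 11.2 and 15.3 in the WT libraries. The groups were far apart, with a log2 fold change of 1.78 ± 0.21 (limma, adjusted p = 0.000296). Without KO replicate 2 the log2 fold change was 1.61. VE-cadherin (Cdh5, Entrez 12562), the adherens junction protein specific to endothelium, was at 177 and 185 in the KO libraries and at 103 and 97.0 in the WT libraries, and rose by 0.85 ± 0.20. Icam2, which is present on resting endothelium, was at 39.1 and 43.5 in KO and at 22.1 and 29.0 in WT hearts, with a log2 fold change of 0.68 ± 0.20. Robo4, a receptor of the Roundabout family that steadies vessels, was at 40.6 and 41.7 in KO and 28.7 and 22.5 in WT hearts (0.67 ± 0.19). Cdh5, Icam2 and Robo4 passed with all libraries (limma, adjusted p = 0.00817, 0.0218 and 0.0201) and not without KO replicate 2 (limma, adjusted p = 0.15, 0.243 and 0.203).

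The remaining 6 of this class did not pass. Pecam1, the most widely used endothelial marker, was at 97.5 and 93.8 in the KO libraries, against 84.1 and 92.1 in the WT libraries, with a log2 fold change of 0.12 ± 0.19 that turned to -0.03 after RLE scaling. Endomucin (Emcn), a sialomucin of capillaries, veins and endocardium, was at 26.5 and 28.9 in KO and at 33.0 and 53.9 in WT hearts; its log2 fold change of -0.59 ± 0.24 did not pass (limma, adjusted p = 0.0764), but did after RLE scaling (limma, adjusted p = 0.0343), after upper quartile scaling (limma, adjusted p = 0.0454) and without WT replicate 1 (limma, log2 fold change -0.93, adjusted p = 0.00011). Without WT replicate 2 it was -0.24 (limma, adjusted p = 0.165), and it did not pass without either KO library or with no filter (limma, adjusted p between 0.157 and 0.31). Esam, a tight junction immunoglobulin protein, was at 54.2 and 59.4 in KO and 53.2 and 46.2 in WT hearts. Plvap, the diaphragm protein of fenestrae, was at 8.13 and 8.41 in KO and 7.78 and 6.42 in WT hearts. Both KO libraries were above both WT libraries for Esam and Plvap, without passing. Clec14a, a C-type lectin of vessels, was at 6.74 and 6.99 in KO and 6.42 and 9.92 in WT hearts, and its matrix partner Mmrn2 at 22.2 and 20.9 in KO and 17.8 and 17.6 in WT hearts.

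The receptors for VEGF did not move together. Flt1 (Entrez 14254), VEGF receptor 1, which binds VEGF-A tightly and signals little, was at 24.0 and 24.2 in the KO libraries, against 45.4 and 32.9 in the WT libraries. It was the single general marker that fell, by 0.66 ± 0.20 on the log2 scale (limma, adjusted p = 0.028; 0.196 without KO replicate 2). Kdr, VEGF receptor 2 and the main signalling receptor, was at 72.9 and 77.9 in KO and at 90.7 and 62.3 in WT hearts, with KO inside the WT range and a log2 fold change of 0.00 ± 0.23 that was -0.14 after RLE scaling. Flt4, VEGF receptor 3 of lymphatic and sprouting endothelium, was at 10.2 and 11.4 in KO and at 8.14 and 6.09 in WT hearts, and rose by 0.55 ± 0.19 (limma, adjusted p = 0.0408), a call lost after RLE scaling (limma, adjusted p = 0.111) and without KO replicate 2 (limma, adjusted p = 0.311).

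Of the Tie receptors, Tie1 rose and Tek did not pass. Tie1, the partner receptor of Tek, was at 70.7 and 66.5 in the KO libraries, against 44.6 and 38.1 in the WT libraries (log2 fold change 0.72 ± 0.19; limma, adjusted p = 0.0132; 0.135 without KO replicate 2). Tek, the receptor of angiopoietins, was at 22.7 and 22.5 in KO and 17.3 and 19.5 in WT hearts, with a log2 fold change of 0.29 ± 0.18. Ptprb, the phosphatase that dampens Tek, was at 26.8 and 21.9 in KO and 31.4 and 20.3 in WT hearts, so the groups overlapped. Endoglin (Eng), a co-receptor for BMP9 and other TGF-beta family ligands, was at 101 and 115 in KO and 179 and 126 in WT hearts; its log2 fold change of -0.48 ± 0.23 did not pass.

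Among transcription factors Erg and Sox7 rose and Fli1, Sox17 and Sox18 did not pass. Sox7 (Entrez 20680) was at 22.7 and 22.2 in the KO libraries, against 8.63 and 13.0 in the WT libraries, a log2 fold change of 1.02 ± 0.21 (limma, adjusted p = 0.00489; 0.0171 without KO replicate 2). The 3 SoxF factors, which act partly in place of one another in vessel formation, had unlike values: Sox18 was at 55.0 and 62.9 in KO and 46.3 and 42.0 in WT hearts (log2 fold change 0.41 ± 0.19), and Sox17 at 5.97 and 5.11 in KO and 6.83 and 6.26 in WT hearts (-0.21 ± 0.17). Erg, an ETS factor that maintains endothelial identity and holds down inflammatory genes in cultured human endothelium, was at 19.7 and 18.9 in KO and 10.5 and 13.0 in WT hearts. It rose by 0.68 ± 0.18 (limma, adjusted p = 0.0156); without KO replicate 2 the log2 fold change was 0.71 and the call was lost (limma, adjusted p = 0.133). Fli1, its close relative, was at 9.75 and 10.5 in KO and 10.04 and 11.6 in WT hearts, with overlapping groups.

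The ligand and receptor of apelin signalling, which in the growing heart guides coronary vessels, rose together. Aplnr (Entrez 23796) was at 59.0 and 59.1 in the KO libraries, against 9.15 and 15.1 in the WT libraries, which lay far below; its log2 fold change of 2.23 ± 0.23 was the highest of the 33 members tested (limma, adjusted p = 0.000143). Apln (Entrez 30878), the peptide made by tip cells, was at 18.7 and 23.2 in KO and at 5.55 and 6.11 in WT hearts (1.68 ± 0.18; limma, adjusted p = 0.000173). Without KO replicate 2 the log2 fold changes of Aplnr and Apln were 2.23 and 1.53. The adrenomedullin receptor and its partner did not pass and lay on opposite sides of WT: Calcrl was at 5.94 and 6.24 in KO and 6.49 and 10.4 in WT hearts, and Ramp2 at 83.2 and 90.9 in KO and 63.4 and 71.3 in WT hearts. S1pr1, the sphingosine 1-phosphate receptor that keeps vessels tight, was at 46.2 and 49.9 in KO and 54.3 and 52.3 in WT hearts and did not pass.

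Of the enzyme and the secreted proteins, Nos3 and Egfl7 rose. Nos3 (Entrez 18127), the endothelial nitric oxide synthase, was at 27.3 and 31.1 in the KO libraries, against 13.6 and 10.3 in the WT libraries, a log2 fold change of 1.23 ± 0.20 (limma, adjusted p = 0.00123; 0.00824 without KO replicate 2). Egfl7, a secreted matrix protein of endothelium, was at 70.0 and 77.8 in KO and 36.7 and 50.8 in WT hearts (0.76 ± 0.21; limma, adjusted p = 0.0186; 0.192 without KO replicate 2). Von Willebrand factor (Vwf), which carries platelets to injured vessels, was at 9.85 and 9.42 in KO and at 23.8 and 10.04 in WT hearts. The WT libraries were far apart. The log2 fold change of -0.64 ± 0.32 did not pass; it was -0.05 without WT replicate 1 (limma, adjusted p = 0.766) and -1.22 without WT replicate 2 (limma, adjusted p = 2.36e-05).

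**Figure D3:**
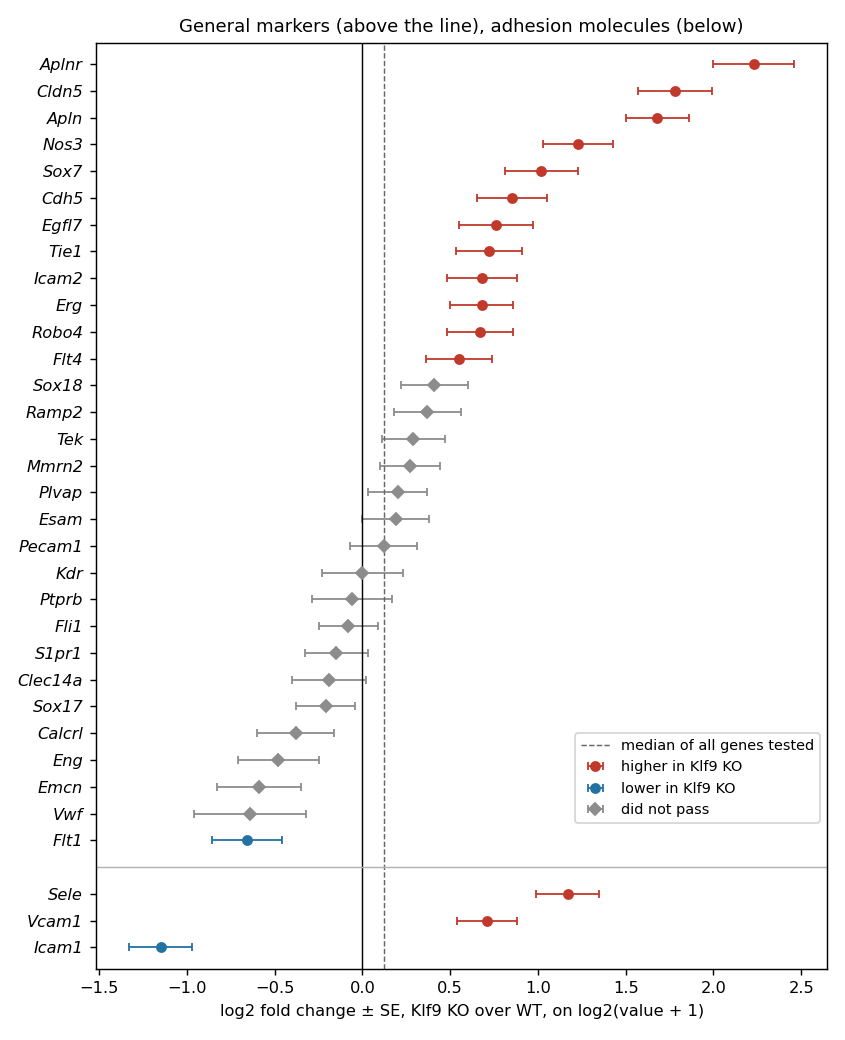
Fitted log2 fold change of Klf9 KO over WT on log2(value + 1), with SE, for the 33 members tested; the dashed line is the median of all genes tested, 0.12, red and blue circles passed limma at an adjusted p below 0.05 and grey diamonds did not. Aplnr, Cldn5 and Apln head the general markers, Flt1 is the lowest of them, and Sele and Icam1 stand on opposite sides of 0.

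Genes that act on or beside these members were read from lists of vascular biology; beside each count stand the 27.7% higher and 17.0% lower of all genes tested. Of 16 tested ligands and co-receptors, 1 rose (6.25%) and 7 fell (43.8%), with a median log2 fold change of -0.42 relative to all genes tested. Angpt1, the Tek ligand that pericytes supply, was at 1.63 and 1.43 in the KO libraries, against 3.85 and 5.69 in the WT libraries, and fell by 1.17 ± 0.20 (limma, adjusted p = 0.0017). Ackr3, a scavenging receptor for Cxcl12 and adrenomedullin, was at 19.4 and 17.8 in KO and 39.7 and 47.3 in WT hearts (-1.18 ± 0.19). The single gene that rose was Nrp2, a VEGF-C co-receptor, at 28.0 and 27.3 in KO and 15.3 and 12.1 in WT hearts (0.97 ± 0.19).

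Of 14 tested arterial and Notch genes 7 rose (50.0%) and 1 fell (7.14%), against 27.7% and 17.0% of all genes tested. Unc5b, a netrin receptor of arterial and tip cells, was at 19.3 and 18.9 in the KO libraries, against 6.81 and 4.89 in the WT libraries, and Heyl, a Notch target, at 18.05 and 18.04 in KO and 6.81 and 5.90 in WT hearts (log2 fold changes 1.57 ± 0.19 and 1.38 ± 0.17). Sema3g, a semaphorin of arterial endothelium, fell by 0.64 ± 0.17. Of 11 capillary genes 3 were higher (27.3%) and 4 lower (36.4%). Lipoprotein lipase (Lpl), which acts on the capillary wall and is made by cardiomyocytes and other cells, was at 302 and 272 in KO and 1563 and 1596 in WT hearts (-2.46 ± 0.22). Cd300lg, a capillary surface receptor, was at 34.9 and 33.6 in KO and 77.1 and 77.2 in WT hearts (-1.15 ± 0.18). Tcf15, a capillary transcription factor, rose by 0.79 ± 0.23, and Aplnr, described above, is in this list too. The list of other junction and adhesion genes had 13 of 27 higher (48.1%) and 2 lower (7.41%); 2 of the 13, Alcam and Procr, entered the test through their KO values alone. Mcam was at 77.7 and 90.1 in KO and 29.8 and 22.1 in WT hearts (1.66 ± 0.21), and Cd93, a partner of Mmrn2, at 109 and 116 in KO and 40.3 and 25.3 in WT hearts (1.79 ± 0.24). Jam2, a junctional adhesion molecule, was at 23.2 and 17.8 in KO and 54.0 and 58.2 in WT hearts (-1.42 ± 0.20), and thrombomodulin (Thbd) fell by 1.0 ± 0.18. Mcam is also made by mural cells and Cd93 by myeloid cells. Without KO replicate 2, limma called 1 higher and 4 lower among the ligands, 4 and 0 among the arterial genes, 1 and 4 among the capillary genes and 9 and 1 among the other junction genes, where all genes tested gave 15.3% and 9.06%. Without WT replicate 1 the arterial genes had 11 higher and 2 lower and the capillary genes 3 and 7, where all genes tested gave 35.7% and 26.9%.

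Genes of NF-kB signalling, a list of 29 that holds inputs, factors, inhibitors and 3 chemokines that are outputs, mostly did not pass or were not tested. Values of Tnf, Il1a, Il1b, Il6, Tlr2, Tnfaip3, Cxcl1 and Cxcl2 were too low to enter the test. Of 21 tested, 4 were lower (19.0%) and 0 higher in limma, with 4 and 0 at an unadjusted p below 0.05; the lower share lay near the 17.0% of all genes tested, while 27.7% of those were higher. The chemokine Ccl2 was 1 of the 4. Without WT replicate 1, 6 were lower and 5 higher, beside 26.9% and 35.7% of all genes, and without KO replicate 2 there were 2 and 0, beside 9.06% and 15.3%. The inhibitor Nfkbib was at 8.08 and 9.49 in the KO libraries, against 16.1 and 18.1 in the WT libraries, and the endotoxin receptor Tlr4 at 1.86 and 1.76 in KO and 3.70 and 4.49 in WT hearts (log2 fold changes -0.89 ± 0.18 and -0.85 ± 0.17). Of 8 tested leukocyte counter-receptors, 3 were lower and 3 higher (37.5% each). Itgam, the alpha chain of the ICAM1-binding integrin Mac-1, was at 0.93 and 0.78 in KO and 3.65 and 4.81 in WT hearts (-1.49 ± 0.18). Itgam entered the test through its WT values alone, so that among tested genes it had to be lower; with no filter its limma adjusted p was 0.00582. Selplg, the ligand of P- and E-selectin on leukocytes, was at 1.27 and 1.12 in KO and 3.28 and 3.83 in WT hearts (-1.05 ± 0.17). Glg1, known as E-selectin ligand 1, rose by 0.90 ± 0.27. Itgal, the alpha chain of LFA-1, had a log2 fold change of 0.52 ± 0.17, but entered the test through its KO values alone, and with no filter it did not pass (limma, adjusted p = 0.0631). After RLE scaling neither Glg1 nor Itgal passed. Without KO replicate 2, 1 counter-receptor was higher and 3 were lower.

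Markers of cells that also carry some of these molecules moved between the groups. Beside each count below stand the 27.7% higher and 17.0% lower of all genes tested. Of 9 tested macrophage markers 8 were lower, 2 of which (Cd163 and Cd14) entered the test through their WT values alone, with a summed value over 10 markers of 59.4 to 59.8 in KO and 208 to 355 in WT hearts. Platelet markers summed to 12.5 to 13.0 in KO and 26.2 to 35.5 in WT hearts, with 2 of 6 tested lower and 1 higher, the last through its KO values alone. The chemokines Pf4 and Ppbp carried the difference in that sum, at 7.59 and 7.91 together in the KO libraries and 20.9 and 30.6 in the WT libraries. The other 6 platelet markers summed to 5.46 and 4.58 in the KO libraries and 5.35 and 4.93 in the WT libraries. The groups overlapped in this sum. This split of the platelet list was not planned. Red cell markers summed to 12516 to 18948 in KO and 10830 to 11078 in WT hearts, with 1 of 7 tested higher. Smooth muscle and pericyte markers summed to 551 to 632 in KO and 371 to 418 in WT hearts, with 6 of 10 higher and 1 lower (4 and 0 without KO replicate 2). Epicardial and mesothelial markers, which mark cells that also make Vcam1, summed to 26.7 to 28.8 in KO and 6.92 to 9.24 in WT hearts, with 6 of 6 tested higher, of which Krt19 and Lrrn4 entered the test through their KO values alone. The WT libraries were far apart on single markers of this list. Its median absolute log2 difference was 3.17 between the WT libraries and 0.38 between the KO libraries. Over all genes tested these were 0.32 and 0.15. Other leukocyte markers summed to 4.09 to 4.53 in KO and 17.3 to 19.6 in WT hearts, with 3 of 3 tested lower, Ptprc and S100a8 through their WT values alone, and of 9 fibroblast markers 4 were higher and 2 lower. In none of these lists was a marker at the smallest value in every library, and their part in the results was not tested.

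**Figure D4:**
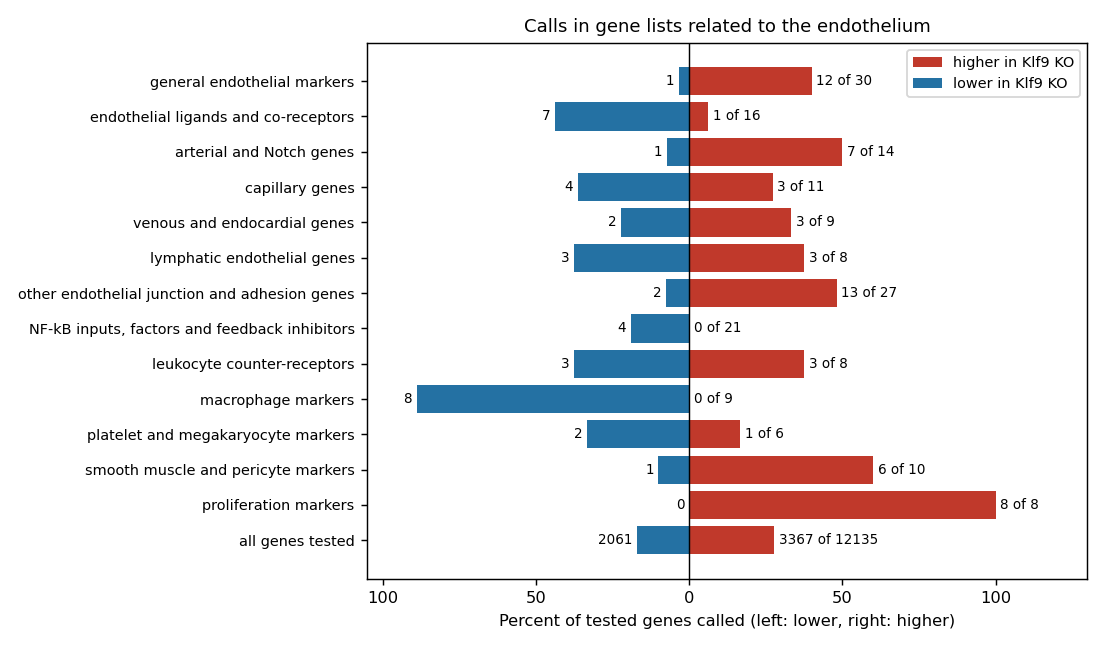
Percent of tested genes of each list called higher (right, red) or lower (left, blue) in Klf9 KO than in WT hearts by limma, with counts beside the bars; the bottom bar gives all genes tested. General endothelial markers had 12 higher and 1 lower of 30, macrophage markers 8 lower of 9 and proliferation markers 8 higher of 8.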

How the data were processed

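Total RNA of heart tissue was sequenced in 2 Klf9 KO and 2 WT libraries, grouped by sample title. The authors deposited 1 table of comparisons: per the file headers, log2 ratios for the 4 pairs of libraries and for the groups, with q-values from DEGseq. The aligner, the build and the unit of expression are not given in the sources used here. Depth is unknown. The direction, KO over WT, was read from the column names and from Klf9.

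Library values were recovered by resolving the pairwise ratios into the smallest whole numbers, taken as steps of 0.01; all 17485 genes were resolved, with departures from additivity of at most 9.9e-14. Moving each ratio on its own by about 1e-06 left 0 of 2000 genes resolved. Such moves break additivity, so this outcome was fixed and does not test the step of 0.01. A missing ratio was read as 2 libraries at the smallest step. A factor common to all 4 values is lost, in an expected 7.61% of genes, which makes a level too low. Since the table held no counts, limma 3.58.1 in R 4.3.3 (trend, robust) was run on log2(value + 1) for the 12135 genes that reached 1 in 2 or more libraries, with group as the term; such fold changes understate those of low genes. Recovery and test were tested on simulated data.

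Members and lists were chosen with earlier results of these data known. All members were named, and of the other lists the called genes of lowest p, at most 2 in each direction; 2 genes of these lists are not reported here. Promoters were read from RefSeq tables (GRCm38.p6). Results were recomputed with a replicate block, without each library, without the filter, with 0.1 as pseudocount, with moderation that was not robust, and after scaling by RLE or by upper quartile. Other tools were pandas 2.3.3 and matplotlib 3.10.9 in Python 3.11.15.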

Additional observations from a re-analysis of the deposited data

How the results depend on the processing

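With 2 libraries per group and no counts, the precision rests on the spread of 4 values and on the spread that limma shares across genes. Each SE given is moderated in this way and is not the spread of that gene alone. Of 330 fits of single members under alternatives, 283 kept direction and side of the threshold, 26 lost the call, 12 gained one and 9 changed sign. Leaving out single libraries gave 1859 to 4327 higher and 1100 to 3261 lower genes among all tested, 5 to 13 higher and 0 to 4 lower general markers, and 1 to 2 higher adhesion molecules. Lower general markers numbered 2 after RLE or upper quartile scaling, 0 with no filter and 3 with the replicate block (Flt1, Emcn and Vwf). The deviations of KO replicate 1 and WT replicate 1 from their group means had a correlation of -0.04 across genes. That value cannot show whether same-numbered libraries were paired. The block left 12 general markers higher. Lower adhesion molecules numbered 2 with no filter, which adds Selp. The adhesion minus general median was 0.44 after RLE or upper quartile scaling, 0.5 with a pseudocount of 0.1, -0.56 with no filter and 0.33 to 0.51 with single libraries left out. All of these but the fit with no filter held the same 3 tested adhesion molecules, so their closeness does not bear on the filter. Signs changed for Pecam1 (-0.03, RLE), Kdr (-0.14, RLE; -0.05, upper quartile), and, over fits without 1 library, for Kdr (-0.26 to 0.27), Clec14a (-0.47 to 0.08), Fli1 (-0.18 to 0.01) and Ptprb (-0.36 to 0.25); of these fits 1 passed, Clec14a at -0.47 without WT replicate 1. Non-robust moderation and a pseudocount of 0.1 changed no member's call. The causes were not tested.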

Other observations

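Of 9 tested venous and endocardial genes 3 were higher (33.3%) and 2 lower (22.2%) (limma, adjusted p below 0.05), shares near the 27.7% and 17.0% of all genes tested. Ephb4, the venous ephrin receptor, was at 39.5 and 42.9 in the KO libraries, against 22.7 and 22.1 in the WT libraries, and Nr2f2, the factor of venous identity, at 10.7 and 11.9 in KO and 6.41 and 5.43 in WT hearts. The small secreted protein Cytl1 was at 2.11 and 1.96 in KO and 4.02 and 4.72 in WT hearts. Without KO replicate 2 the counts of this list were 0 and 1, where all genes tested gave 15.3% and 9.06%.

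Of 8 lymphatic genes 3 were higher and 3 lower (37.5% each, beside 27.7% and 17.0% of all genes tested), with Mmrn1 tested through its WT values alone, and without KO replicate 2 the counts were 2 and 3. Lyve1, a hyaluronan receptor of lymphatic endothelium and of some resident macrophages, was at 2.10 and 3.23 in the KO libraries, against 10.3 and 16.1 in the WT libraries. Ccl21a, a chemokine of lymphatic vessels with near-identical gene copies, was at 10.5 and 11.1 in KO and 18.6 and 33.7 in WT hearts. Prox1, the factor of lymphatic identity that cardiomyocytes also make, was at 34.2 and 29.7 in KO and 21.4 and 12.7 in WT hearts. Macrophage markers were lower in the same libraries, and their part in the Lyve1 value was not tested.

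The authors' deposited table had q below 0.05 for 15 general markers that did not pass limma. For Pecam1 the authors' deposited table gave a group log2 ratio of 0.12 with q = 2.06e-07. For Vwf, whose WT libraries differed by 1.25 on the log2 scale, the authors' deposited table gave -0.89 with q = 2.89e-126.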
